A study of Mus musculus with 12 samples.

Results

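The muscularis macrophage genes described here are 10 genes taken by symbol from a table of 27179 genes measured in mouse colon. They are Csf1, Csf1r, Cx3cr1, Cd163, Mrc1, Timd4, Lyve1, Mertk, C1qa and Adgre1. No threshold on measured values picked them, but earlier results of these data were known when they were chosen. RNA was sequenced from full-thickness colon cut out where diphtheria toxin had been injected, in 7 ablated and 5 control libraries. The ablated mice carried BAF53b-Cre together with R26-iDTR, a receptor for the toxin that is made only in cells with a history of Cre. The control mice were littermates with R26-iDTR and without the Cre. Mice of both groups had a laparotomy and received the toxin with India ink in the muscularis propria, so surgery, toxin and ink were common to both. The Cre follows Actl6b, the gene of the neuronal chromatin subunit BAF53b, so by design the toxin is aimed at neurons and not at macrophages. Which cells made the receptor was not tested here. Time after the toxin, age and sex are not given in the labels used here. Nor is it said whether each library is a separate mouse. A p-value here therefore takes the library as its unit, which may not be the mouse.

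Macrophages of the gut muscle layer lie beside enteric neurons and smooth muscle and live long in place. Their survival depends on CSF1R, a receptor tyrosine kinase for the cytokines CSF1 and IL-34, and enteric neurons are a known source of CSF1 in the mouse. In return the macrophages make BMP2, which acts on enteric neurons, and they engulf neuronal debris. Whole colon also holds the many macrophages of the mucosa, which share most of these genes, so the values describe the colon wall and not the muscle layer alone. In such bulk tissue, fewer cells of a type and less RNA per cell cannot be told apart.

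RefSeq promoters, 250 bases before to 50 bases after the gene start on GRCm38.p6, were matched for 6 of the 10 genes (Csf1, Cx3cr1, Cd163, Mrc1, Timd4 and Mertk). The promoters of Mrc1, Cd163 and Mertk are shown because Mrc1 and Cd163 varied with Csf1r across libraries and Mertk did not; they were chosen after the values were seen. All run 5′ to 3′ on the + strand, Mrc1 from chr2:14229164-14229463, Cd163 from chr6:124304401-124304700 and Mertk from chr2:128698665-128698964. Capitals mark GAGGAA or its reverse complement TTCCTC, the core letters of sites for PU.1, the myeloid transcription factor that drives Csf1r.
Mrc1: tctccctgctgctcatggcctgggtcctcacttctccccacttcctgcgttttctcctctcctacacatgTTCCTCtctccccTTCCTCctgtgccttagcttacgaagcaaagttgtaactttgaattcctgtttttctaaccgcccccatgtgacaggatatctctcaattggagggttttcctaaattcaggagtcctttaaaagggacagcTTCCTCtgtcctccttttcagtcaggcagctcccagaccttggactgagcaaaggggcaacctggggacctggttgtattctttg
Cd163: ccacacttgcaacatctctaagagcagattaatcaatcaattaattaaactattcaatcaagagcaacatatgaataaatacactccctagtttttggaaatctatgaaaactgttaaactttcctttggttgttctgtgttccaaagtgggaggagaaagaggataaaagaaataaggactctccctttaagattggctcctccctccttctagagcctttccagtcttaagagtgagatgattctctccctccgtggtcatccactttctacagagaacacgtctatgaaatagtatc
Mertk: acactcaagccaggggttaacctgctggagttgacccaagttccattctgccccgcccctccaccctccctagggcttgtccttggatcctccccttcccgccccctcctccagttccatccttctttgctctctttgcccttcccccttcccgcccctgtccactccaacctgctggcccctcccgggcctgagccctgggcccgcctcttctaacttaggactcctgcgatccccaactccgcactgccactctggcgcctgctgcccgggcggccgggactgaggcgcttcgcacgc
These letters occurred 3 times in the Mrc1 window and in none of the other 5 windows, and 28.3% of the 32851 RefSeq promoters of the same length hold them. A match describes the letters and is not a binding site.

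The genes lie on 9 chromosomes of the mm10 assembly, with annotation from GENCODE. Csf1 is at chr3:107741048-107760469, Csf1r at chr18:61100598-61132149, Cx3cr1 at chr9:119901616-120069879, Cd163 at chr6:124304656-124330527 and Mrc1 at chr2:14229392-14332057. Timd4 is at chr11:46810800-46844332, Lyve1 at chr7:110850607-110863239, Mertk at chr2:128698956-128802894, C1qa at chr4:136895917-136898803 and Adgre1 at chr17:57358691-57483527. Csf1, Lyve1, Cx3cr1 and C1qa are read from the minus strand and the other 6 from the plus strand.

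None of the 9 genes that could be tested passed as different between ablated and control colon after adjustment over all genes. Levels are in TPM, a share of each library's transcripts scaled for gene length. Tests used limma on log2(TPM + 0.5) over the 16164 genes that reached 0.5 TPM in 5 or more libraries, with Benjamini-Hochberg adjustment, and an adjusted p under 0.05 counts as passing. Over all those genes, 231 passed (1.43%), 68 of them higher (0.421%) and 163 lower (1.01%) in ablated colon. At an unadjusted p under 0.05, 1 macrophage gene (Mertk) was past that level, against 11.8% of all genes tested. In no macrophage gene did the ablated and control libraries stand wholly apart, which 2.88% of all genes did. Of the 9 log2 fold changes, ablated minus control, 8 were negative and only that of Mertk was positive, with a median of -0.18 against 0.03 over all genes tested. Of a simulated log2 change of 1 in this same comparison over 16164 genes, 67 of 100 changed genes were recovered, and of a log2 change of 2, 94 of 100. The simulation drew genes and libraries independently, with the same SD in both groups, which the measured values do not follow. It therefore does not give the recovery for the macrophage genes themselves.

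**Figure D1:**
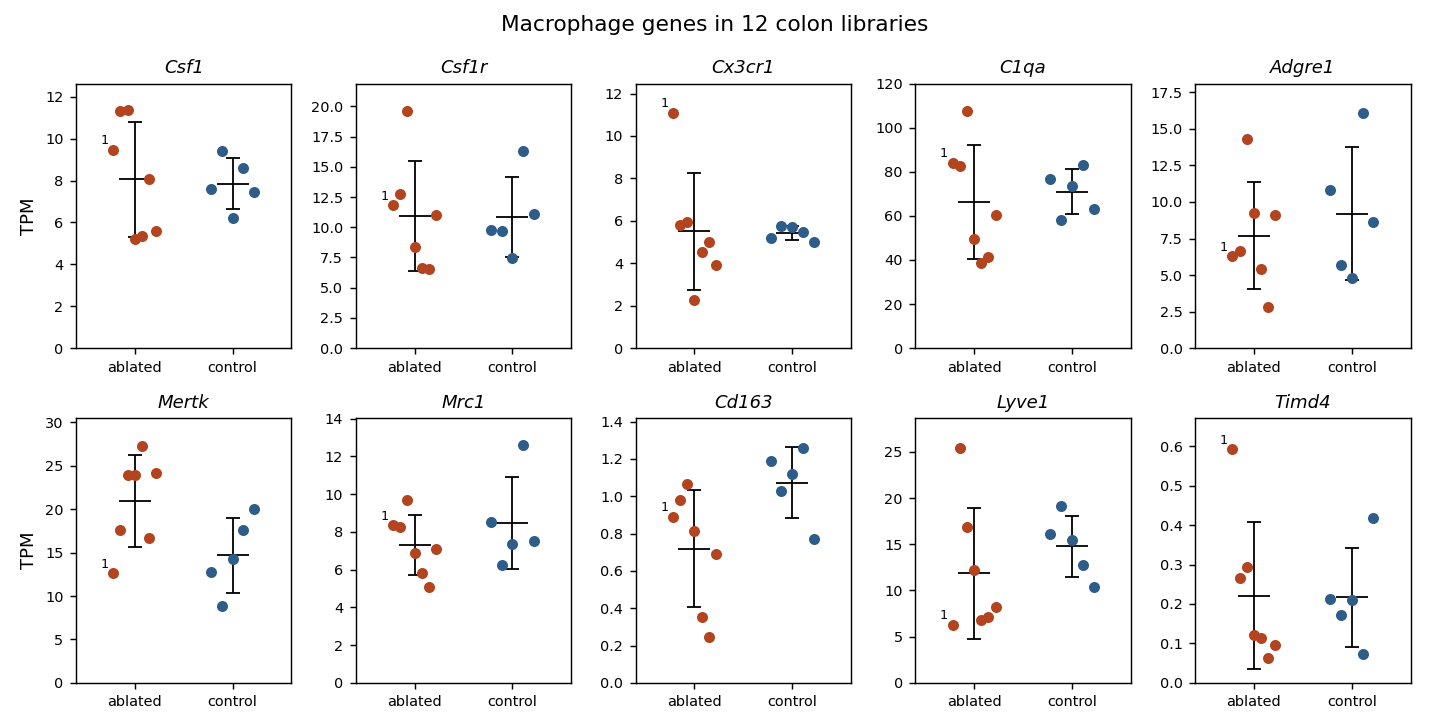
TPM of the 10 macrophage genes in each library (points), with ablated libraries left and control libraries right in each panel; the horizontal mark is the mean and the bars are 1 SD (n = 7 and n = 5), and the digit 1 marks ablated library 1. The points of both groups overlap in every panel, and in Mertk 4 of the 7 ablated libraries lie above the highest control library.

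Neuron genes separated the groups, and a single library stood apart from the rest. Uchl1, a ubiquitin hydrolase abundant in neurons, had 6.93 ± 2.56 TPM in ablated colon and 41.8 ± 15.5 TPM in control colon (SD, n = 7 and 5; limma adjusted p = 0.000406). Of 12 neuron genes listed, 10 passed as lower in ablated colon. Actl6b, the gene behind the Cre, had 0.447 ± 0.224 TPM in ablated and 0.971 ± 0.372 TPM in control colon and did not pass (limma adjusted p = 0.222). Depth was 13.4 to 26.9 M reads per library, as recovered from the TPM. Ablated library 1 was the shallowest, had 18.7% of its recovered reads in mitochondrial genes against 3.56% to 10.4% in the other 11, and stood at one end of the first principal component. Cx3cr1, in which it holds the highest value, is given with and without it.

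The ligand of the pathway, Csf1, differed by less than its spread. It had 9.48, 11.3, 11.4, 5.18, 5.34, 8.09 and 5.58 TPM in the ablated libraries, against 7.60, 9.39, 6.19, 8.61 and 7.47 TPM in the control libraries. The ablated libraries fell into 3 above the highest control library, 3 below the lowest and 1 between, so their mean, 8.05 ± 2.75 TPM, was close to the 7.85 ± 1.21 TPM of control colon. The log2 fold change was -0.02 with a 95% interval of -0.49 to 0.45 (limma adjusted p = 0.992), which as a fold runs from 0.713 to 1.37. Stromal and endothelial cells of the wall also transcribe Csf1, and the part of each source was not tested.

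Il34 encodes the other ligand of CSF1R. It had 21.5, 13.9, 14.6, 19.7, 8.63, 11.5 and 19.2 TPM in the ablated libraries, against 12.1, 7.76, 11.2, 10.96 and 12.4 TPM in the control libraries. Of the 7 ablated libraries, 5 lay above the highest control library. The difference, 0.46 on the log2 scale (-0.01 to 0.92), did not pass after adjustment (limma adjusted p = 0.432). Across the 12 libraries Csf1 and Il34 had a Pearson r of -0.06 and a Spearman rho of 0.06 (a description; this pair was looked at after the values were seen).

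Csf1r, the receptor and the gene on which most tissue macrophages depend, had nearly equal means in both groups. It had 11.8, 12.8, 19.6, 8.35, 6.60, 6.51 and 11.03 TPM in the ablated libraries, against 9.81, 9.71, 7.44, 16.3 and 11.1 TPM in the control libraries. The highest and the 2 lowest libraries of all were ablated ones. The log2 fold change was -0.03 (-0.60 to 0.53; limma adjusted p = 0.986). The interval in folds, 0.659 to 1.45, leaves room for a moderate change in either direction.

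Cx3cr1, the receptor for fractalkine and a marker of gut macrophages, spread more widely in ablated colon, by an amount that a single library set in part. It had 11.1, 5.81, 5.93, 2.29, 4.52, 4.99 and 3.94 TPM in the ablated libraries, against 5.19, 5.74, 5.70, 5.49 and 5.02 TPM in the control libraries. The control libraries lay close together, while the ablated ones ranged on both sides of them. The coefficient of variation was 50.01% in ablated and 5.82% in control colon, and the log2 fold change was -0.10 (-0.66 to 0.47; limma adjusted p = 0.950). The high value is that of ablated library 1, the library rich in mitochondrial RNA, and without it the coefficient of variation in ablated colon was 29.5% and the log2 fold change was farther from 0, at -0.27 (limma adjusted p = 0.535). A larger spread in ablated colon was general: 7 of the 10 macrophage genes had the larger coefficient of variation there, all but Mrc1, Mertk and Adgre1, as did 83.7% of all genes tested. Over all genes tested the median coefficient of variation was 27.5% in ablated and 14.9% in control colon.

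Adgre1 encodes the F4/80 antigen, the usual surface marker of mouse macrophages. It had 6.28, 6.62, 14.3, 9.27, 5.40, 2.79 and 9.08 TPM in the ablated libraries, against 10.9, 5.66, 4.77, 16.1 and 8.60 TPM in the control libraries. Both groups spread several-fold, and 6 of the 7 ablated libraries lay within the control range. The log2 fold change was -0.25 (-1.02 to 0.52; limma adjusted p = 0.885). It was -0.0258 without control library 4, the highest (limma adjusted p = 0.992), and -0.69 with an epithelial covariate described with Mertk (limma adjusted p = 0.234).

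C1qa, which encodes a chain of the complement recognition protein C1q and is made in the gut mainly by macrophages, was the most abundant of the 10 genes. It had 84.2, 82.4, 108, 49.6, 38.8, 41.2 and 60.3 TPM in the ablated libraries, against 76.8, 58.3, 73.4, 83.2 and 63.0 TPM in the control libraries. As with Csf1, the ablated libraries ran both above and below the control range, with 2 above it and 3 below. The log2 fold change was -0.18 (-0.70 to 0.34; limma adjusted p = 0.877). The genes of the other chains, C1qb and C1qc, lie beside it on chromosome 4. C1qb had 18.6 ± 9.24 TPM in ablated and 16.0 ± 5.76 TPM in control colon (limma adjusted p = 0.949), and C1qc had 56.3 ± 24.6 TPM in ablated and 52.8 ± 9.57 TPM in control colon (limma adjusted p = 0.9998).

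Of the markers of resident, long-lived macrophages, Mrc1, Cd163 and Lyve1 could be tested; each had a lower mean in ablated colon and none passed. Mrc1, the mannose receptor CD206, had 8.34, 8.24, 9.67, 6.90, 5.83, 5.06 and 7.10 TPM in the ablated libraries, against 8.52, 6.27, 7.38, 12.6 and 7.54 TPM in the control libraries. No ablated library exceeded the highest control library, but 5 of 7 lay within the control range. Its log2 fold change was -0.19 (-0.59 to 0.21; limma adjusted p = 0.797), and -0.0413 without control library 4, the highest (limma adjusted p = 0.977).

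Cd163, the scavenger receptor for haemoglobin and haptoglobin, had the lowest ratio of ablated to control mean among the 10, 0.671. It had 0.890, 0.979, 1.07, 0.815, 0.351, 0.248 and 0.689 TPM in the ablated libraries, against 1.19, 1.03, 1.12, 1.26 and 0.772 TPM in the control libraries. All 7 ablated libraries lay below the control mean, and 3 lay below the lowest control library. The means were 0.720 ± 0.312 TPM in ablated and 1.07 ± 0.188 TPM in control colon, with a log2 fold change of -0.40 (-0.85 to 0.04; limma adjusted p = 0.481). These levels rest on 16 to 71 reads per library, and the added constant of 0.5 TPM compresses a fold change at such levels.

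Lyve1, a hyaluronan receptor of resident macrophages beside vessels and nerves and also of lymphatic endothelium, had 6.28, 25.5, 16.9, 12.2, 6.82, 7.17 and 8.25 TPM in the ablated libraries. In the control libraries it had 16.1, 19.1, 15.5, 12.8 and 10.4 TPM. Below the lowest control library lay 4 ablated ones, and 1 ablated library was the highest of all. The log2 fold change was -0.45 (-1.14 to 0.24; limma adjusted p = 0.660). Of the other lymphatic endothelium genes listed, only Mmrn1, Flt4, Reln and Pdpn were set against Lyve1, and some of these varied beside it. Mmrn1, an extracellular protein of that endothelium, had r = 0.94 with Lyve1 over the 12 libraries, Flt4, the receptor for VEGF-C, had r = 0.89, and Reln had r = 0.82, whereas Pdpn had r = 0.35 (a description; these pairs were looked at after the values were seen). Mmrn1 had 4.63 ± 2.84 TPM in ablated and 7.34 ± 1.65 TPM in control colon (limma adjusted p = 0.391). Of the 9 lymphatic genes listed besides Lyve1, 7 were tested, 6 of these had negative log2 fold changes and 0 passed. Their summed level was 63.5 to 109 TPM in ablated and 84.4 to 115 TPM in control libraries. No gene of the list was at 0 in every library, though Prox1 and Ccl21a were under the minimum, and the part of lymphatic RNA in the Lyve1 values was not tested.

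Timd4, a receptor for phosphatidylserine on self-renewing resident macrophages, was too low to test. It had 0.593, 0.267, 0.294, 0.120, 0.115, 0.0641 and 0.0970 TPM in the ablated libraries, against 0.213, 0.172, 0.210, 0.0732 and 0.417 TPM in the control libraries. The highest value is that of ablated library 1, and the values stand for 2 to 11 reads per library. A difference in Timd4 was therefore not detectable at this depth, and with no minimum level its limma adjusted p was 0.991.

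Mertk, a receptor tyrosine kinase by which macrophages take up dying cells, was the 1 gene of the 10 whose interval lay above 0. It had 12.6, 17.6, 24.0, 24.0, 27.3, 16.6 and 24.2 TPM in the ablated libraries, against 12.7, 8.88, 14.3, 17.7 and 19.996 TPM in the control libraries. Above the highest control library lay 4 ablated ones, and 6 of 7 exceeded the control mean. The means were 20.9 ± 5.29 TPM in ablated and 14.7 ± 4.32 TPM in control colon, 1.42-fold, and the log2 fold change of 0.50 (0.02 to 0.98) did not pass after adjustment (limma adjusted p = 0.389). At an unadjusted p under 0.05 and in the same direction stood 7.07% of all genes tested.

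Mertk tended to be more correlated with epithelial than with macrophage genes. Over the 12 libraries its r with the 12 epithelial genes listed had a median of 0.63. It ran from -0.31 for Krt18 to 0.86 for Vil1, the villin of the epithelial brush border, and was 0.32 for Epcam. With the other 21 genes of the macrophage core list its r ran from -0.41 to 0.56 with a median of 0.18, among them 0.06 with Csf1r and 0.04 with Cd68, a lysosomal protein of macrophages. With the other 9 genes described here it ran from -0.54 for Cx3cr1 to 0.27 for Adgre1. These values are a description, and the lists were compared after values were seen. Of 12 epithelial genes, 9 had positive log2 fold changes and 1 passed, Fcgbp, a mucus protein of goblet cells, at 751 ± 204 TPM in ablated and 411 ± 46.6 TPM in control colon (limma adjusted p = 0.0389). Their summed level was 13104 to 21403 TPM in ablated and 12994 to 16082 TPM in control libraries. With the mean of the centred epithelial log2 values as a covariate, added after the values were seen, the log2 fold change of Mertk was 0.02 (limma adjusted p = 0.951), in a fit in which 3423 genes passed. That mean itself averaged 0.13 ± 0.27 in ablated and -0.19 ± 0.15 in control colon, so the group and the epithelial level cannot be fully told apart in this fit.

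**Figure D2:**
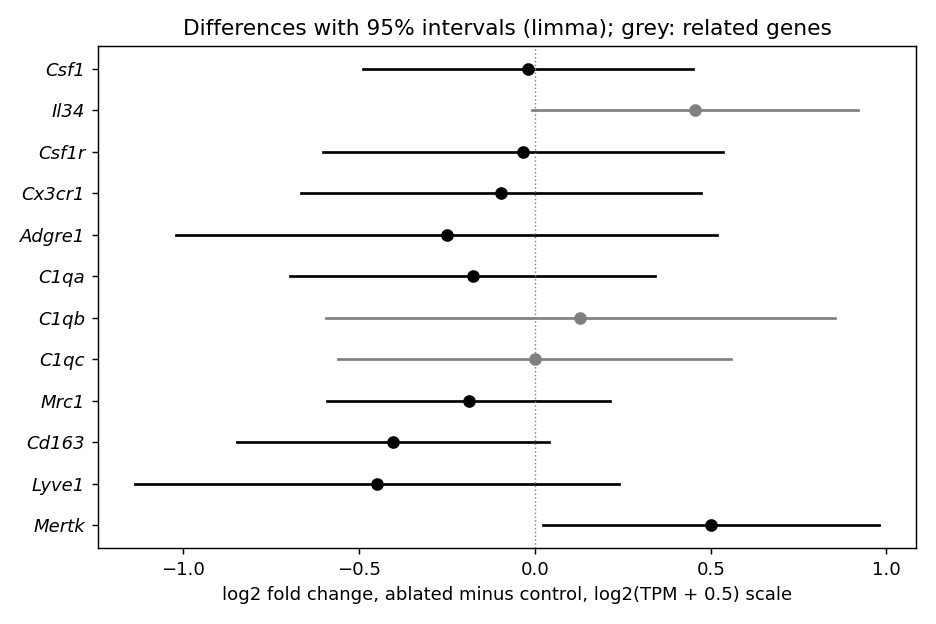
Log2 fold change, ablated minus control, of 9 macrophage genes (black) and of Il34, C1qb and C1qc (grey), with 95% intervals from limma on log2(TPM + 0.5). Every interval but that of Mertk (0.02 to 0.98) covers 0, and after adjustment over 16164 genes none passed.

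The authors' deposited table of their own comparison called no macrophage gene either. In the authors' deposited table, 306 genes had a false discovery rate under 0.05 and 0 of the 10 were among them. The authors' deposited table gives Mertk a log2 fold change of 0.47 (p = 0.0291, false discovery rate 0.432) and Cd163 one of -0.62 (false discovery rate 0.591).

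Several macrophage genes varied together from library to library, although none passed between the groups. Over the 12 libraries, 5 of the 9 other genes were correlated with Csf1r at an adjusted permutation p under 0.05 (100000 resamples, two-sided, adjusted over 9 relations). This count has no background beside it, since the share of all genes tested that reach that level with Csf1r is not given. Variation between libraries was broad, with 40.05% of it on the first principal component. C1qa had Pearson r = 0.84 and rho = 0.87 (adjusted permutation p = 0.00274 for r), and Mrc1 had r = 0.84 and rho = 0.86 (adjusted permutation p = 0.00274 for r). Adgre1 had r = 0.79 and rho = 0.72 (adjusted permutation p = 0.00801 for r). Csf1 had r = 0.66 and rho = 0.66, and Cd163 had r = 0.63 and rho = 0.50, both with an adjusted permutation p of 0.0464 for r; neither passed by rho (adjusted p = 0.0533 for Csf1 and 0.141 for Cd163). Lyve1 (r = 0.38, rho = 0.36), Timd4 (r = 0.34, rho = 0.49), Cx3cr1 (r = 0.33, rho = 0.58) and Mertk (r = 0.06, rho = 0.0070) did not pass by either measure. The rho of Cx3cr1 (adjusted permutation p = 0.0917) was above that of Cd163.

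Fewer of these genes passed without the 2 libraries farthest out in Csf1r, a setting that also leaves 10 libraries and a narrower range of Csf1r. The r of Csf1 did not fall there. Without ablated libraries 3 and 6, only Mrc1 passed (r = 0.81, adjusted permutation p = 0.0350), and C1qa had r = 0.72 (adjusted permutation p = 0.0857), Adgre1 0.64, Csf1 0.67 and Cd163 0.53. Within the 7 ablated libraries alone, C1qa (r = 0.97, adjusted exact permutation p = 0.00714), Mrc1 (r = 0.95, adjusted exact permutation p = 0.00804) and Cd163 (r = 0.87, adjusted exact permutation p = 0.0196) passed. Adgre1 (r = 0.77) and Csf1 (r = 0.68) did not pass there. The 5 control libraries are too few for such a test, so whether these genes varied together in control colon by itself was not tested.

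**Figure D3:**
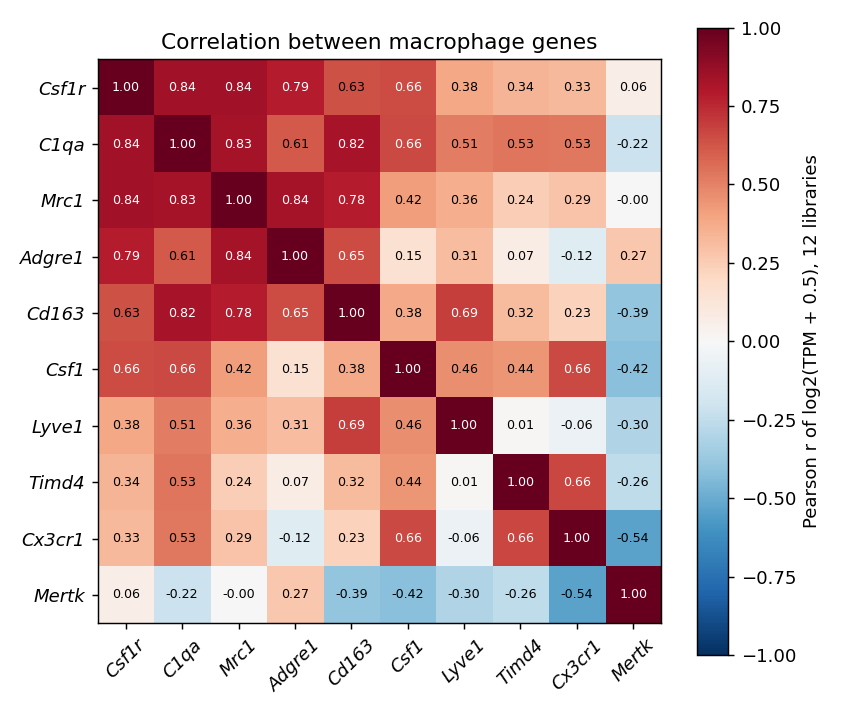
Pearson r of log2(TPM + 0.5) between each pair of the 10 macrophage genes over 12 libraries, red for positive and blue for negative values. Csf1r, C1qa, Mrc1, Adgre1 and Cd163 form a block with r of 0.61 to 0.84, while Mertk has r of 0.27 or lower with every other gene.

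Outside the 10, the tested genes with the highest r with Csf1r over 12 libraries were Nckap1l (r = 0.95), an actin regulator of blood cells, Ms4a6c (r = 0.95), Rhog (r = 0.95), Slc11a1 (r = 0.95), the metal transporter of macrophage phagosomes, and Fcgr2b (r = 0.95), the inhibitory receptor for IgG. None of the 5 passed between the groups (limma adjusted p of 0.955 to 0.998). Those most like Csf1 were Efs (r = 0.95), Rgs19 (r = 0.95), Pld2 (r = 0.95), Rai1 (r = 0.94) and Heatr6 (r = 0.94).

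For 3 genes whose correlation with Csf1r did not pass, the most similar genes were looked up after the values were seen. Those of Lyve1 were Mmrn1 (r = 0.94), Fbln1 (r = 0.92), Tgfbr3 (r = 0.92), Cxcl12 (r = 0.91) and Hey1 (r = 0.91), of which Cxcl12 is a chemokine of stromal and endothelial cells. Those of Mertk were Dip2a (r = 0.96), Bahcc1 (r = 0.94), Slc11a2 (r = 0.94), Sesn3 (r = 0.93) and Zdhhc16 (r = 0.93). Those of Cx3cr1 reached r of 0.94 with Mib2, but rho of only 0.81, and ablated library 1 is the extreme point of both.

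**Figure D4:**
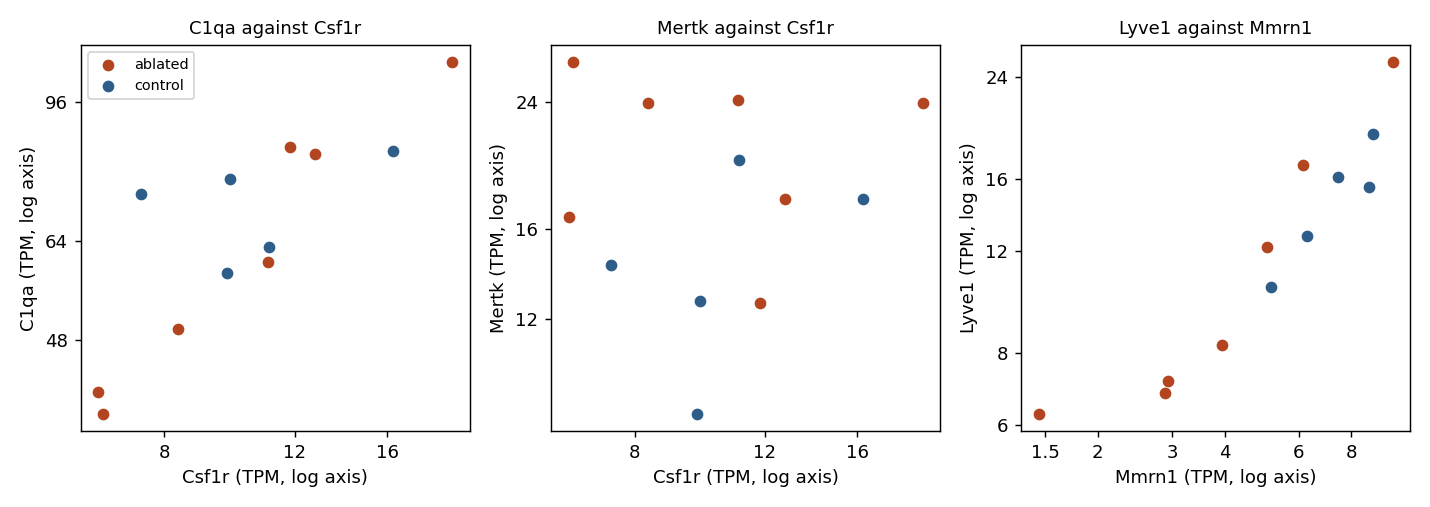
C1qa against Csf1r (left), Mertk against Csf1r (middle) and Lyve1 against the lymphatic gene Mmrn1 (right), in TPM on log axes; each point is 1 library, ablated or control by colour. C1qa (r = 0.84) and Lyve1 (r = 0.94) lie along a line and Mertk (r = 0.06) does not; in Lyve1 the 4 libraries at the low end are all ablated ones.

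Since 5 of the 9 other genes were correlated with Csf1r over the 12 libraries, 8 of the 9 (Timd4 left out) were also set against Csf1r within its library, a comparison added after the values were seen. None of 8 ratios passed between the groups by an exact permutation test over all 792 splits, two-sided and adjusted over the 8. Cd163 per Csf1r had the smallest p, with a log2 difference of -0.37 (exact permutation p = 0.0972, adjusted p = 0.510). Mertk per Csf1r averaged 2.20 ± 1.10 in ablated and 1.40 ± 0.44 in control colon, with 4 of 7 ablated libraries above every control library (exact permutation p = 0.160, adjusted p = 0.510).

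No gene of the wider macrophage lists, which hold the 10 genes as well, passed. Across 8 lists of macrophage, monocyte, CSF1, complement and uptake genes, 141 genes in all, 130 could be tested and 0 passed by limma. Of the 130, 9 were at an unadjusted limma p under 0.05, against 11.8% of all genes tested. The median log2 fold change of the 130 was -0.04. Without the 10, 121 were tested, 0 passed by limma, 8 were at an unadjusted p under 0.05 and the median was -0.03. Of the 13 alternative fits that kept all libraries, 4 called between 1 and 14 of these genes. The 14 were called with the epithelial covariate, in a fit in which 3423 of all 16164 genes tested passed. Among the 14 were Retnla, Cbr2 and Ly6c2 as lower and Thbs1, Fn1 and Ptprz1 as higher in ablated colon.

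In the CSF1 axis (16 of 18 genes tested) the median log2 fold change was -0.01. Its largest difference was in Ptprz1, a receptor phosphatase of glia that also binds IL-34, with 11.04 ± 7.78 TPM in ablated and 3.18 ± 0.677 TPM in control colon (limma adjusted p = 0.0693). Its lowest ablated library, at 3.98 TPM, was just above the highest control library, at 3.96 TPM.

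Among 21 genes of neuron and macrophage signals, 19 were tested and the median was 0.03. Bmp2, a factor that macrophages give to neurons, had 62.7 ± 14.5 TPM in ablated and 55.3 ± 21.1 TPM in control colon (limma adjusted p = 0.780). The part of macrophages in this value was not tested. Cx3cl1, the ligand of Cx3cr1, had 41.3 ± 8.70 TPM in ablated and 35.2 ± 4.54 TPM in control colon (limma adjusted p = 0.704). Cd200, a neuronal and endothelial ligand that restrains macrophages, had 23.8 ± 5.03 TPM in ablated and 28.9 ± 3.79 TPM in control colon (limma adjusted p = 0.482). Bmp2 and Cx3cl1 were named after their values were seen.

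The macrophage core list of 22 genes had a median of -0.04, and the resident macrophage list, with 20 of 22 genes tested, one of -0.18. In the resident list 15 of 20 log2 fold changes were negative, against a median of 0.03 over all genes tested. The 15 include Mrc1, Cd163 and Lyve1, so they do not add separately to the values of those genes. The share of negative values over all genes tested is not given here. Cbr2, a carbonyl reductase of resident macrophages, had 40.2 ± 5.17 TPM in ablated and 54.3 ± 10.4 TPM in control colon (limma adjusted p = 0.185). Retnla, a secreted marker of alternative activation that epithelium also makes, had 2.99 ± 2.14 TPM in ablated and 8.75 ± 7.49 TPM in control colon (limma adjusted p = 0.357). In the core list Laptm5, a lysosomal protein of blood cells, had 18.6 ± 9.99 TPM in ablated and 23.4 ± 7.59 TPM in control colon (limma adjusted p = 0.664).

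Genes of mucosal macrophages and dendritic cells had a median of -0.13 over 15 of 18 genes. H2-Aa, an MHC class II chain, had 159 ± 151 TPM in ablated and 178 ± 59.1 TPM in control colon (limma adjusted p = 0.768). Hes1, a Notch target also of epithelium, had 139 ± 56.3 TPM in ablated and 187 ± 62.3 TPM in control colon (limma adjusted p = 0.550). The recruited monocyte list of 20 genes had a median of -0.03. Its Fn1, fibronectin, which fibroblasts also make, had 160 ± 59.7 TPM in ablated and 81.4 ± 14.6 TPM in control colon (limma adjusted p = 0.0668). Thbs1, a matrix glycoprotein of platelets, monocytes and stroma, had 29.96 ± 15.7 TPM in ablated and 16.8 ± 4.36 TPM in control colon (limma adjusted p = 0.374). Ly6c2, the surface marker of inflammatory monocytes, named after its values were seen, had 7.70 ± 7.002 TPM in ablated and 12.5 ± 5.59 TPM in control colon (limma adjusted p = 0.528), and Ccr2, the receptor that draws monocytes out of the marrow, had 5.14 ± 3.60 TPM in ablated and 3.95 ± 0.832 TPM in control colon (limma adjusted p = 0.904).

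In the C1q and complement list of 13 genes the median was -0.04, and C2, a serine protease of the classical pathway, had 4.21 ± 0.694 TPM in ablated and 3.12 ± 1.01 TPM in control colon (limma adjusted p = 0.381). The uptake list had a median of 0.12 over 19 of 22 genes. Axl and Tyro3, the receptors related to Mertk, had 24.4 ± 7.04 and 6.89 ± 0.929 TPM in ablated colon, against 19.8 ± 1.65 and 7.57 ± 0.751 TPM in control colon (limma adjusted p = 0.683 for Axl and 0.762 for Tyro3). Their bridging ligand Gas6 had 363 ± 29.5 TPM in ablated and 379 ± 33.5 TPM in control colon (limma adjusted p = 0.893). Lrp1, an uptake receptor of macrophages and fibroblasts, had 24.8 ± 4.75 TPM in ablated and 17.9 ± 2.72 TPM in control colon (limma adjusted p = 0.183). Axl, Tyro3 and Gas6 were named after their values were seen.

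**Figure D5:**
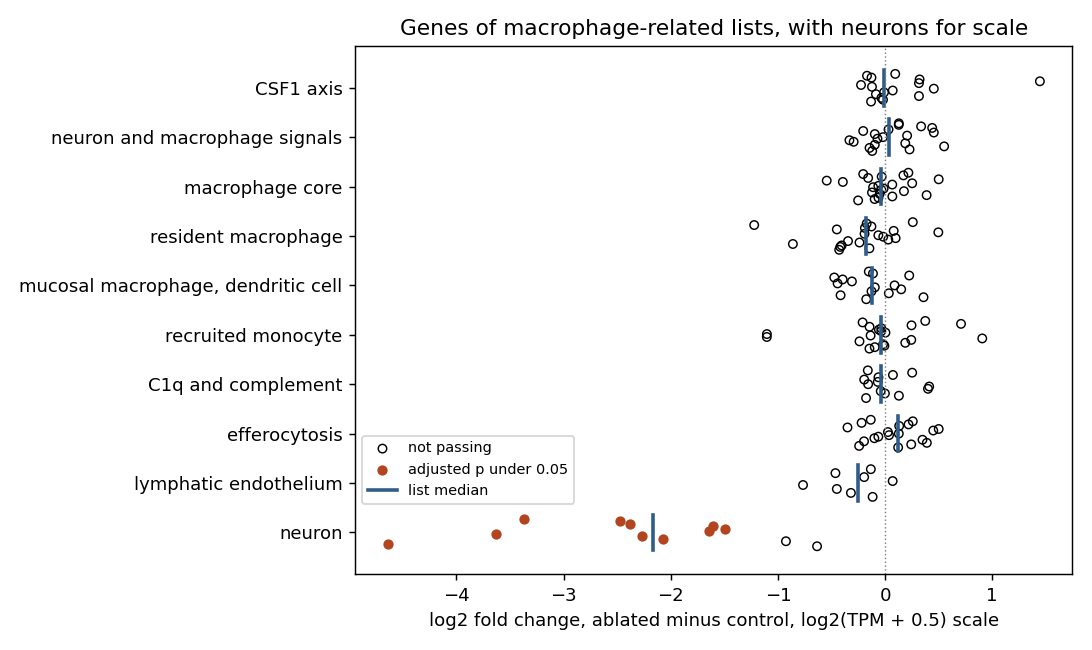
Log2 fold change, ablated minus control, of each tested gene (circles) in 8 macrophage-related lists, in lymphatic endothelium and in neurons, with the list median as a blue bar; filled circles passed limma at an adjusted p under 0.05. In the neuron list 10 of 12 genes are filled, and in the other lists shown none is.

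Markers of other cells in the wall give the scale for these values. Smooth muscle genes had a median log2 fold change of -0.0040 with 0 of 12 passing, and blood endothelium 0.19 with 0 of 10. Lymphocyte genes had a median of -0.54 with 0 of 11 passing, among them Jchain, the joining chain of antibodies, at 220 ± 159 TPM in ablated and 555 ± 113 TPM in control colon (limma adjusted p = 0.126). Glial genes had a median of -0.57 with 0 of 9 passing, among them S100b at 1.31 ± 0.895 TPM in ablated and 3.19 ± 0.674 TPM in control colon (limma adjusted p = 0.0703). Neutrophil and mast cell genes had a median of -0.11 with 0 of 9 passing, and erythrocyte genes 0.21 with 0 of 5. Of 12 fibroblast genes 1 passed, Col6a1, a collagen VI chain, at 48.6 ± 6.65 TPM in ablated and 30.6 ± 4.71 TPM in control colon (limma adjusted p = 0.0212).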

How the data were processed

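Per the labels' protocols, RNA was extracted with Trizol and polyadenylated RNA was made into strand-specific libraries. Per the submitters' processing notes, bcl2fastq 2.17, HISAT and featureCounts were used with mm10, and the versions of the last 2 are not given in the sources used here. The authors deposited TPM per gene. The authors' deposited table of their comparison gives each gene a log2 fold change, its average log2 CPM, an F statistic as a score, a p-value and a false discovery rate, and is used only where named.

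The 10 genes and the 18 other gene lists were chosen with earlier results of these data known. Genes named are the 10, up to 4 passing genes of each list by p (up to 2 by p where none passed), C1qb, C1qc, Il34, Actl6b, Uchl1 and the 5 genes most correlated with Csf1r and with Csf1; others are marked as named after their values were seen. Some genes that this rule names are not reported here. The epithelial and mitochondrial covariates, the ratios to Csf1r, and the promoters and their motif were also added after values were seen.

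Since the unit is TPM, no count test was run. Whole reads, recovered to within 0.05 read for 22840 of 22842 genes above 0, gave the depth. Fits were made in R 4.3.3 by limma 3.58.1, using lmFit and then eBayes with its trend option, on log2(TPM + 0.5), ablated minus control, two-sided, tested on simulated data with known changes (7 false calls). Permutations and correlations ran in Python 3.11.15 (SciPy 1.17.1, pandas 2.3.3, numpy 2.4.6), and plots were drawn by matplotlib 3.10.9. The 25 alternative fits changed the constant (1, 0.1), the minimum (none, 1 TPM), the scaling, the variance model, covariates, a block on library number, the reads (voom) or the set of libraries, leaving out 1 at a time with the tested genes kept (the minimum was at first applied again to the libraries left, which gave fewer calls without control library 2 or 3, and the genes were fixed after that was seen). All 12 libraries were used.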

Additional observations from a re-analysis of the deposited data

Results flagged for a closer look

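Of 20 sets of values checked, each of the 10 macrophage genes in each group, 1 held a library far from the rest of its group by Dixon's criterion, which chance meets in about 1 of 20 groups. Cx3cr1 had 11.1 TPM in ablated library 1, against 2.29 to 5.93 TPM in the other ablated libraries and 5.02 to 5.74 TPM in the control libraries. That library also had the fewest reads, 13.4 M, and 18.7% of its recovered reads in mitochondrial genes; their part in the Cx3cr1 value was not tested.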

How the results depend on the processing

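In all 25 alternative fits 0 of the macrophage genes passed, and for Mertk the limma adjusted p ran from 0.0590 (a weight per library) to 0.951 (epithelial covariate), with a log2 fold change of 0.34 to 0.62 when single libraries were left out. Over all genes, 349 passed with no minimum level (273 lower), 1092 with a weight per library (654 higher, 438 lower), 3423 with the epithelial covariate (1410 higher, 2013 lower), 716 with the mitochondrial covariate (337 higher, 379 lower), and 128 to 328 with single libraries left out (23 to 126 higher, 105 to 202 lower; 128 without control library 2 and 137 without control library 3). Of the genes in all lists, 12 passed in the fit reported and 25, 38 and 21 with the weights, the epithelial and the mitochondrial covariate. Of the 141 macrophage-list genes, 4 passed with a weight per library (Lrp1, Bmpr2, Fn1 and Ptprz1), 1 with a smooth muscle covariate (Fn1), 14 with the epithelial covariate (8 lower: Retnla, Ly6c2, Gpnmb, Cbr2, Rac1, Hpgd, Bmpr1a and Selenop; 6 higher: C1s1, Tgfb3, Thbs1, Igf1, Fn1 and Ptprz1), 3 with the mitochondrial covariate (Lrp1, Fn1 and Ptprz1), and 0 to 1 with single libraries left out (Fn1 without ablated library 1, Ptprz1 without ablated library 3 or 6). The cause of these differences was not tested.

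Hes1, at -0.47 in the fit reported, changed sign to 0.13 with the epithelial covariate. Log2 fold changes nearer 0 changed sign too: Csf1 to 0.28 and Cx3cr1 to 0.41 with the epithelial covariate, C1qa to 0.0163, C1qb to -0.27 and C1qc to 0.15 with the same covariate, Csf1r to 0.0271 and C1qc to 0.0299 with the smooth muscle covariate, and C1qc to 0.000411 with the mitochondrial covariate. With single libraries left out, they ran from -0.11 to 0.0683 for Csf1, -0.18 to 0.12 for Csf1r, -0.27 to 0.0698 for Cx3cr1, -0.0503 to 0.33 for C1qb and -0.16 to 0.12 for C1qc, without a change of sign from -0.28 to -0.0413 for Mrc1 and from -0.44 to -0.0258 for Adgre1, and the log2 ratios to Csf1r from -0.10 to 0.11 for Csf1 and -0.21 to 0.0735 for Cx3cr1. Of the correlations with Csf1r, 4 passed with an added constant of 1, 1 without the 2 farthest libraries and 3 within the ablated libraries. That of Mertk became -0.18 without the 2 farthest libraries and -0.0776 within the ablated libraries.

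The deviations of same-numbered libraries of the groups had r of -0.27 to 0.36 over 5 numbers. This does not show a pairing by number, and it cannot exclude one. With library number as a block, 84 genes passed (15 higher, 69 lower) and 0 macrophage genes, and Csf1, Csf1r and C1qc had log2 fold changes of 0.0518, 0.0698 and 0.11. Depth limits Timd4 (2 to 11 reads per library) and Cd163 (16 to 71).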
